A study of Mus musculus with 4 samples.

Results

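Vomeronasal type 1 receptor genes were examined for peaks of DNA recovered with the long noncoding RNA Malat1 in a mouse breast cancer cell line. The members were all protein-coding genes of the RefSeq annotation of mm10 (GRCm38.p6) whose symbol begins with Vmn1r, 231 of the 21631 protein-coding genes on chromosomes 1 to 19 and X. They were chosen by name alone, a rule that uses no measured value, but earlier results of these data were known at the time. One of them, Vmn1r-ps103, carries a pseudogene-style symbol but is annotated as protein-coding. Vmn1r genes encode G protein-coupled receptors of sensory neurons in the vomeronasal organ, where they detect pheromones and other small chemical signals. They signal through the G protein subunit Gnai2 and the cation channel Trpc2, and each neuron is thought to express a single receptor gene. The family expanded by repeated local duplication, which left tight clusters of very similar genes with a short coding sequence in 1 exon.

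The cells were 4T1-TGL, a breast cancer line of BALBC strain origin, and all 4 libraries carried the genotype label WT. They were a ChIRP pull-down with a probe pool named Even, one with a pool named Odd, one with LacZ probes, and an input whose title also names Even. In ChIRP, biotinylated oligonucleotides complementary to an RNA pull it out of sonicated nuclei, and the DNA that comes along is sequenced, while LacZ probes usually serve as the control without a target in the cell. Each group was 1 library of 1 cell line, and the values analysed came from 1 list of peaks called on merged treatment reads, so nothing has a replicate and Even, Odd and LacZ could not be compared. The sources used here do not say which libraries were merged. As DNA was sequenced, the cell type label could not be checked against expressed markers.

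The list held 77823 peaks, 77713 of them on chromosomes 1 to 19 and X, called by the authors from 851227 treatment tags against 50030325 input tags. A summit is the position of highest tag pileup in a peak. The tag count is the number of treatment tags in the peak, and the fold is the authors' ratio of the summit's pileup to a local background, the highest of those read from the scaled input. These are the authors' values of each peak. The implied input is the level of that background in units of the genome mean, computed here from height and fold. At this depth a summit of 3 tags over the genome mean already gives a fold of 179.5. Intervals below cover counting error only.

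Few Vmn1r genes had a summit nearby. A summit inside the gene or at most 5 kb from it was found for 17 of the 231 members (7.36%, 95% Wilson interval 4.65 to 11.5), whereas 60.8% of all protein-coding genes had one. The members are short genes: the median member is 924 bp long (range 870 to 33695 bp) and the median of the other protein-coding genes is 17676 bp. Among the 3539 other genes between 897 and 4067 bp, the 5th to 95th percentile of the members' lengths, 29.98% had a summit (28.5 to 31.5). The olfactory receptor genes (Olfr), the large receptor family of the main olfactory epithelium with a median length of 950 bp, had one at 238 of 1110 (21.4%, 19.1 to 24.0). Vmn2r genes, the other vomeronasal receptor family, had one at 41 of 124 (33.1%, 25.4 to 41.7) with a median length of 24392 bp. Neighbouring genes share their surroundings and are not independent, so these intervals are too narrow as statements about gene families.

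Distance to the nearest summit showed the same on another scale. For the 229 members with a usable position the median distance was 41.3 kb, against 11.97 kb for the 3496 other genes of like length. More than 100 kb from any summit lay 73 members (31.9%), against 7.52% of those other genes. Most of the 73 lay in a single cluster of 86 members on chromosome 7, called chr7-C below, where the median distance was 365 kb. In the other clusters of at least 3 members the median ran from 19.4 to 46.8 kb, still above the 11.97 kb of those other genes. The excess beyond 100 kb was therefore mainly a feature of chr7-C and not of the family as a whole. The members Vmn1r186 and Vmn1r187 were left out of all position counts: the table places them in the first 3 Mb of chromosome 7, where no chromosome held a summit. They stay in the count of 231 as genes without one.

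Local density was lower at the members than beside them. The union of the member windows (each gene with 5 kb on both sides) covered 2.64 Mb and held 20 summits, or 7.57 per Mb. The flanks of 500 kb on each side, without the member windows, held 548 summits in 22.3 Mb, or 24.6 per Mb. The ratio was 0.308 (exact 95% interval 0.187 to 0.481), and the flank density predicted 64.9 summits where 20 were found. No summit was shared by neighbouring members. Among peaks whose implied input lay within 0.1% of the genome mean, 5 in the windows and 68 in the flanks, the ratio was 0.621 with an interval of 0.195 to 1.52 that includes 1. Among the peaks above it, 15 and 480, the ratio was 0.264 (0.147 to 0.440).

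The chromosomes differed widely. On chromosome 13 the windows of 36 members held 11 summits, 28.1 per Mb against 20.8 in the flanks, a ratio of 1.35 (0.621 to 2.70). On chromosome 17 the ratio was 1.06 (0.207 to 3.38), with 3 summits at 14 members. On chromosome 6 it was 0.126 (0.0151 to 0.467), with 2 summits at 51 members. On chromosome 7, the home of 124 of the placed members, it was 0.0921 (0.0189 to 0.272), with 3 summits. The intervals of chromosomes 6 and 7 lie wholly below those of chromosome 13. Members with a summit numbered 8 of 36 on chromosome 13, 3 of 14 on chromosome 17, 2 of 51 on chromosome 6 and 3 of 126 on chromosome 7, so that chromosome 13 supplied 8 of the 17 from 36 of the 231 genes. Without chromosome 13 the pooled ratio was 0.161 (0.0731 to 0.307). The single member of chromosome 1 (Vmn1r1) and both of chromosome 4 (Vmn1r2, Vmn1r3) had none, and Vmn1r238 on chromosome 18 had 1.

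Members fell into 8 clusters of at least 3 genes, taking a gap of over 1 Mb as a break. The cluster on chromosome 13 (22.1 to 23.3 Mb, 36 members, Vmn1r188 to Vmn1r223) held 25 summits over its whole span, 21.3 per Mb. Its flanks of 1 Mb on each side held 23.5 per Mb and the chromosome 23.1 per Mb, and the ratio of span to flanks was 0.907 (0.535 to 1.504). The cluster on chromosome 17 (20.4 to 21.3 Mb, 14 members, Vmn1r224 to Vmn1r237) held 8 summits, 8.83 per Mb against 21.5 in its flanks, a ratio of 0.411 (0.167 to 0.884). Its 3 summits at members were close to the 3.34 that the flanks predict for the windows, and the sequence between genes held 5.25 per Mb.

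Chromosome 6 has 3 clusters, called chr6-A to chr6-C here in order of position. The largest, chr6-A (56.9 to 58.5 Mb, 28 members, Vmn1r4 to Vmn1r31), held 16 summits over its span, 10.3 per Mb against 22.5 in the flanks, a ratio of 0.456 (0.241 to 0.823). None of the 16 lay within 5 kb of a member, where the flanks predicted 8.43 (ratio 0, interval 0 to 0.456). The windows of the 6 other protein-coding genes in the same span held 21.2 per Mb. In chr6-B (66.6 to 66.8 Mb, 8 members, Vmn1r32 to Vmn1r39) 3 summits gave a ratio of 0.407 (0.0815 to 1.25), which does not separate it from its flanks. In chr6-C (89.7 to 90.3 Mb, 15 members, Vmn1r40 to Vmn1r54) 6 summits gave 10.5 per Mb against 43.5, a ratio of 0.242 (0.0866 to 0.549).

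Chromosome 7 has 3 clusters as well. In chr7-A (5.1 to 6.0 Mb, 11 members, Vmn1r55 to Vmn1r65) the span held 19 summits, 21.7 per Mb against 40.5, a ratio of 0.536 (0.307 to 0.892). In chr7-B (10.3 to 13.2 Mb, 24 members, Vmn1r66 to Vmn1r89) it held 58, or 19.6 per Mb. The flanks held only 12.5 per Mb, a ratio of 1.57 (0.966 to 2.62). They were uneven, with 4 summits in the 1 Mb before the span and 21 in the 1 Mb after it. Most of the flank before it lies in a summit-free stretch of 2.42 Mb with 16 Vmn2r genes. The span of chr7-B mixes members with 29 other protein-coding genes. The windows of these other genes carried 43.2 summits per Mb, the member windows 3.76 and the sequence between 14.5. The interval of the ratio includes 1, and the ratio changed side with the setting. It was 0.961 with peaks at or above the median fold and 0.981 with flanks of 500 kb. When the cluster was split at gaps over 500 kb, its largest part, with 13 summits, had a ratio of 0.880. The ratio was 1.39 with peaks of more than 3 tags and 1.47 with flanks without windows of other receptor genes, with intervals that include 1. With flanks of 2 Mb it was 1.96 (1.29 to 3.01). With breaks only at gaps over 2 Mb it was 3.68 (1.96 to 7.64). These last intervals lie wholly above 1. In other clusters the interval also included 1 under several settings. With flanks of 2 Mb the ratio was 0.790 (0.458 to 1.29) in chr7-A and 0.491 (0.204 to 1.02) on chromosome 17. With peaks of more than 3 tags it was 0.538 (0.261 to 1.02) in chr7-A and 0.460 (0.137 to 1.23) on chromosome 17. With peaks at or above the median fold it was 0.572 (0.255 to 1.16) in chr7-A, 0.491 (0.166 to 1.21) on chromosome 17 and 0.475 (0.205 to 1.01) in chr6-A. With flanks of 500 kb it was 0.540 (0.260 to 1.11) in chr6-A. The ratios of these 3 clusters stayed below 1 in each case.

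**Figure D1:**
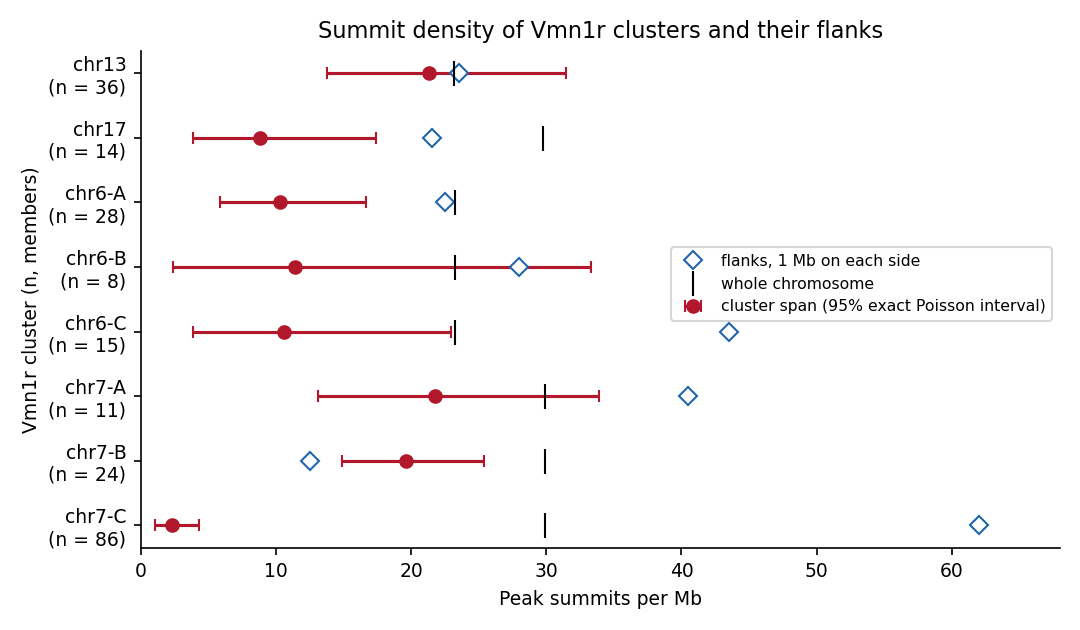
Peak summits per Mb (horizontal axis) for the 8 Vmn1r clusters with at least 3 members (vertical axis, n is the number of members). Red points show the cluster span with its 95% exact Poisson interval, blue diamonds the flanks of 1 Mb on each side, and black bars the whole chromosome. The lowest cluster is chr7-C at 2.27 per Mb beside flanks at 62.0, while the chr13 cluster lies at 21.3 beside 23.5.

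The third cluster of chromosome 7, chr7-C, held the most genes and the fewest summits for its length. It runs from 20101158 to 24055691 with 86 members, Vmn1r91 to Vmn1r183, and its span of 3.96 Mb held 9 summits, 2.27 per Mb (exact Poisson interval 1.04 to 4.31). The flanks on both sides were dense, with 65 summits in the 1 Mb before it and 59 in the 1 Mb after it, 62.0 per Mb. They predicted 246 summits for the span, and the ratio was 0.0366 (0.0164 to 0.0718). Against the density of the chromosome as a whole, 29.9 per Mb, the span was also low. The windows of the members held 1 summit where the flanks predicted 58.6, and the windows of the 18 other protein-coding genes in the span also held 1. Low density was therefore a feature of the whole span, with 2.64 per Mb in the sequence between the gene windows.

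Within chr7-C the summits lay at 1 end. None lay between 20067460 and 22794962, a stretch of 2.73 Mb that includes 61 members with their windows. Of the 77010 intervals between neighbouring summits on the 19 autosomes this was the longest, and their median was 16.8 kb. Vmn1r129 (chromosome 7, 21360368 to 21361291), in the middle, was 1293 kb from the nearest summit. The remaining 1.27 Mb of the cluster held all 9 summits, 7.11 per Mb, still well below the flanks. These 9 peaks had a median of 3 tags, a median height of 2 and a median fold of 119.7, and the largest had 11 tags. Peaks of the flanks were close to this, with a median of 4 tags and a fold of 123.2. The median implied input of the 9 was 1.00 times the genome mean, against 1.60 at the peaks of the flanks. The stretch was picked for its length after the positions were seen, and runs of unknown sequence in the assembly were not read.

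**Figure D2:**
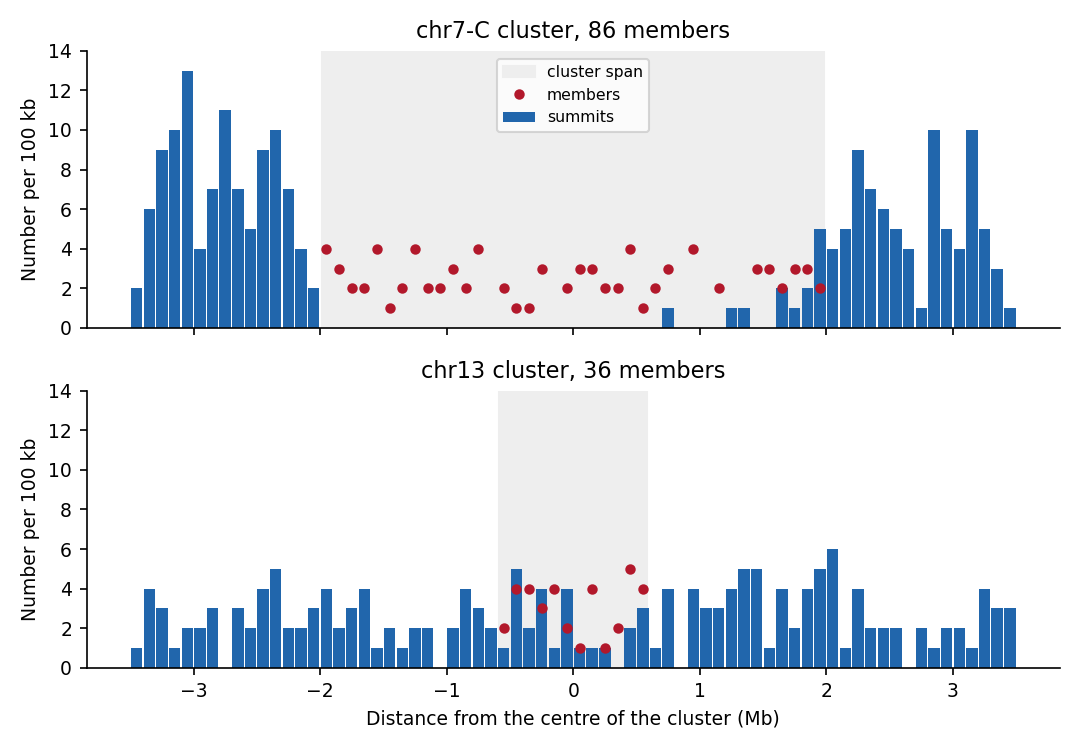
Number of summits (blue bars) and of Vmn1r genes (red points) per 100 kb, against the distance from the centre of the cluster in Mb, with the cluster span in grey. In chr7-C (86 members) summits are absent from most of the span and reach 13 per 100 kb outside it, whereas in chr13 (36 members) they run through the span at 21.3 per Mb, near the 23.5 of its flanks.

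Many members of chr7-C had nearly the same promoter sequence as another member. RefSeq promoter windows (250 bases before the gene start and 50 after, GRCm38.p6) were matched for 206 of the 231 members by gene ID. Of the 83 with a window in chr7-C, only 51 distinct sequences of the 250 upstream bases occurred. The largest group of identical ones had 6 genes, Vmn1r111, Vmn1r118, Vmn1r131, Vmn1r138, Vmn1r166 and Vmn1r257, and a further gene, Vmn1r242, differed from them by 1 base. The 250 bases are shown for Vmn1r111 (minus strand, chr7:20703217-20703466), for Vmn1r242 (minus strand, chr7:20233829-20234078), and, for contrast, for Vmn1r194 of the chromosome 13 cluster (plus strand, chr13:22243965-22244214), the member with the most summits. They are written 5′ to 3′ from the RefSeq promoter table, and the capital marks the base at which Vmn1r242 differs from Vmn1r111.
Vmn1r111: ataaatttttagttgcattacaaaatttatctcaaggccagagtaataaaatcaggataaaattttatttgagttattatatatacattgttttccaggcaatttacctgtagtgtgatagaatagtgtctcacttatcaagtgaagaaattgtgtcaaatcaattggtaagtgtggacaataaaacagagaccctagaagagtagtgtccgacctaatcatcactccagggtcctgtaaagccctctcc
Vmn1r242: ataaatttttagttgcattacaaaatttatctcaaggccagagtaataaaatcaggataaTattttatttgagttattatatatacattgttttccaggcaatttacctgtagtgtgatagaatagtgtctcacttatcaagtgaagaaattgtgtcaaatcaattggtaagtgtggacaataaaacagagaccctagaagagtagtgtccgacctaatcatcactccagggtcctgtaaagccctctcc
Vmn1r194: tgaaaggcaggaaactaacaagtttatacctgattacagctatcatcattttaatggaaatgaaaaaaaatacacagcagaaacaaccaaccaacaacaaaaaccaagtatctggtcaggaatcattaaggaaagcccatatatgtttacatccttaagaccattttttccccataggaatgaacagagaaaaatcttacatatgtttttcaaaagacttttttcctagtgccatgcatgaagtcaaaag
The difference is A61T, counted from 1 at the 5′ end, with the base of Vmn1r111 first, and the identity is 99.6%. A tag of 25 bases that lies wholly within the sequence of Vmn1r111 matches at least 6 places in the genome equally well. None of these 6 genes nor Vmn1r242 had a summit within 5 kb. Vmn1r194 shared no word of 25 bases with another promoter and had 3 summits. Most members of that kind had none: of the 52 that shared no such word, 7 had a summit and 45 did not.

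To compare the clusters, the share of the 276 words of 25 bases in each promoter window that also occur, on either strand, in the promoter window of another gene at another place was counted. The length of 25 is the tag size that the authors' peak caller took. In chr7-C the median share was 100%, and 55 of 83 windows had all their words elsewhere. It was 5.43% on chromosome 13, 0% on chromosome 17, 2.54% in chr6-A, 25.7% in chr6-B, 11.8% in chr6-C, 25% in chr7-A and 0% in chr7-B. Over 17492 protein-coding genes the median was 0%, and 6.74% of them shared more than 50% of their words. With words of 76 bases, the read length in the labels, the median was still 100% in chr7-C and was 0% in each of the other 7 clusters. Only promoter windows were compared, so a match elsewhere in the genome was not seen and these shares are lower bounds of repetition.

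Inside the summit-free stretch the median share of 25-base words was 100% (59 windows), and in the rest of chr7-C it was 61.6% (24 windows). With words of 76 bases the medians were 100% and 20.9%. The sources used here do not say how reads with several matches were handled, so the counts of summits at such copies are uncertain, and the part of copy number in the missing summits was not tested. The low density of chr6-A stood beside a share of 2.54%, and the member windows of chr7-B, with 1 summit where 3.32 were predicted (ratio 0.301, 0.00733 to 1.84), beside a share of 0%. Among the 115 members outside chr7-C that shared at most 50% of their words, 14 (12.2%) had a summit. The 8 outside chr7-C that shared more had none. In chr7-C, 1 of the 75 that shared more had one, and none of the 8 that shared at most 50% did.

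**Figure D3:**
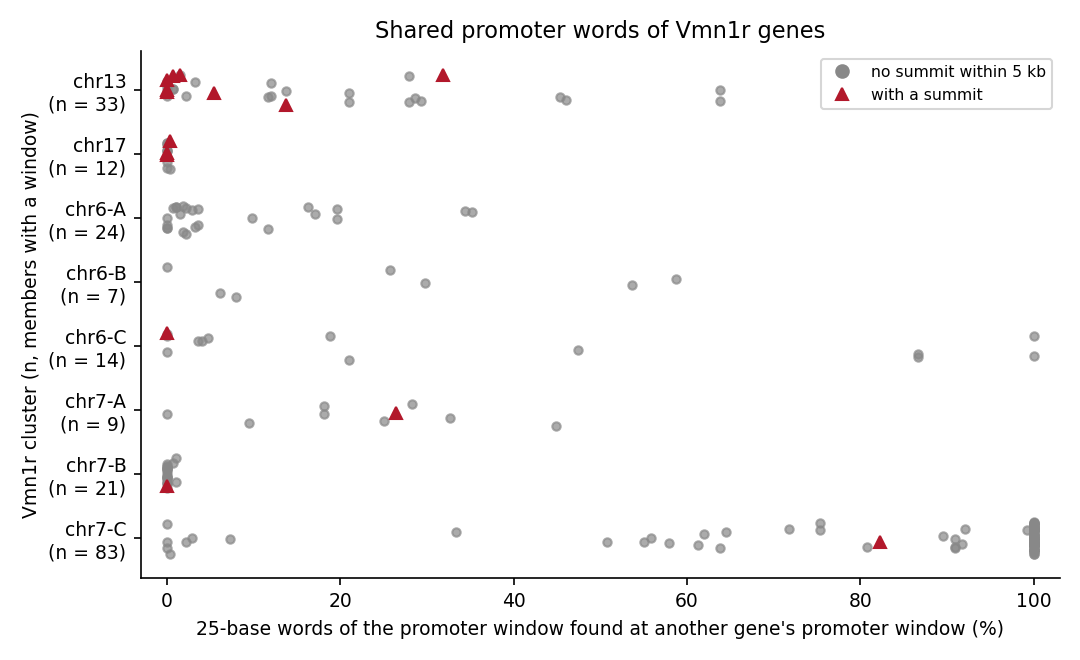
Share of the 25-base words of each member's promoter window that also occur in the promoter window of another gene (horizontal axis, percent), by cluster (vertical axis, n is the number of members with a window); points are spread vertically for visibility. Red triangles mark members with a summit at most 5 kb away. Most of the 83 windows of chr7-C lie at 100%, and all triangles of the other clusters lie under 50%.

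Base composition was read from the same promoter windows. The median GC content of the promoter windows was 36.0% for the members, 35% for olfactory receptor genes and 56.3% over protein-coding genes. It was 36.7% in chr7-C and 36.3% on chromosome 13. It was 32.2% on chromosome 17, 30.7% in chr6-A, 32.0% in chr6-B, 43.2% in chr6-C, 37.7% in chr7-A and 31.3% in chr7-B. The part of base composition in the densities was not tested.

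The 20 peaks at members were of ordinary strength. Their median was 5.5 tags (range 3 to 36) and their median fold 163.9 (range 38.4 to 435.7), against 5 tags and a fold of 133.1 over all 77713 peaks. Peaks in the flanks of the members had a median of 4 tags and a fold of 142.6. At the fewest tags that any peak has, 3, were 6 of the 20, against 37.2% of all peaks. The median implied input was 1.403 times the genome mean both at the members and over all peaks. With 20 peaks and no replicate, no difference in strength was tested.

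The strongest member peak was at Vmn1r228 on chromosome 17 (gene 20776059 to 20777501). The peak, 20774221 to 20774602, had 36 tags and a fold of 435.7 with its summit 1707 bp from the gene, above 96.2% of all peaks. Next was Vmn1r39 on chromosome 6 (66804415 to 66805332), with 17 tags, a fold of 328.3 and the summit 2770 bp away, at the edge of chr6-B. Vmn1r194 on chromosome 13 (22244215 to 22245105) had 3 summits, the most of any member. The best held 16 tags at a fold of 316.8, 4543 bp from the gene, and the other two held 3 tags each at folds of 133.1 and 123.2.

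Chromosome 13 supplied most of the following peaks. Vmn1r-ps103 had a peak of 10 tags and a fold of 299.2, and Vmn1r220 had 2 summits, of 14 tags (fold 256.2) and 8 tags (fold 204.1). Vmn1r158 on chromosome 7 (22789859 to 22790782), the only one of the 86 members of chr7-C with a summit, had 5 tags and a fold of 239.4 at a distance of 4180 bp. Vmn1r226 on chromosome 17 had 10 tags and a fold of 221.8. On chromosome 13 again, Vmn1r203 had 5 tags and a fold of 192.9, Vmn1r212 had 4 tags and 179.5, and Vmn1r205 had 12 tags and 148.2.

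Nearly all of these summits lay outside the receptor genes. By length alone most would, as the median gene body is 924 bp beside 5 kb on each side. The summit at Vmn1r212 (chromosome 13, 22883088 to 22884324) was the only one inside a gene body, and the peak there, 22883922 to 22884052, had 4 tags at an implied input of 1.00. At Vmn1r231 on chromosome 17 the summit was 42 bp outside the gene, with 3 tags and a fold of 119.7. No peak at a member overlapped its promoter window, among the 206 with one, but each such window is only 300 bases long. The remaining members with a summit were Vmn1r197 and Vmn1r191 on chromosome 13, Vmn1r41 on chromosome 6, Vmn1r83 and Vmn1r61 on chromosome 7, and Vmn1r238. Their peaks held 3 to 6 tags at folds of 38.4 to 119.7. The lowest, at Vmn1r238, had 6 tags where the implied input was 4.67.

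**Figure D4:**
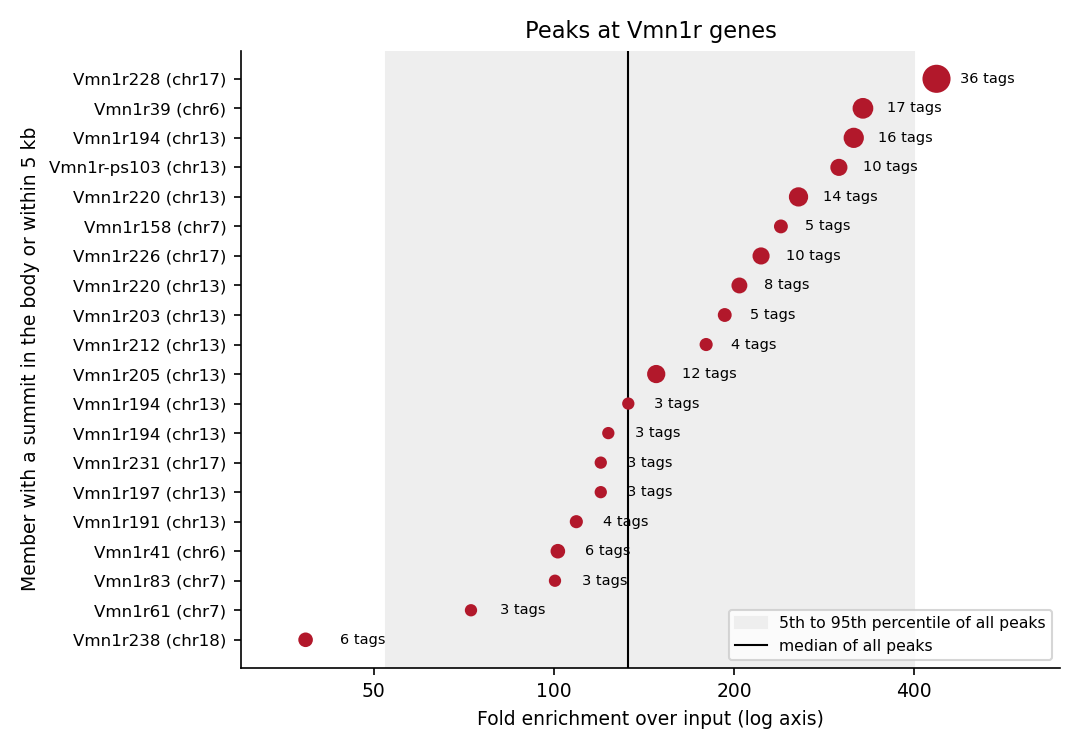
Authors' fold enrichment over input (horizontal log axis) of the 20 peaks at Vmn1r genes (vertical axis, 1 row per peak), with the tag count beside each point and point area rising with it. The grey band spans the 5th to 95th percentile of all peaks (52.3 to 399) and the black line their median of 133.1. Only Vmn1r228 lies above the band and only Vmn1r238 below it.

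The width of the window decided how many members had a summit. Just inside 5 kb lay summits at 4048 bp (Vmn1r205), 4133 bp (Vmn1r-ps103), 4180 bp (Vmn1r158), 4425 bp (Vmn1r203) and 4459 bp (Vmn1r238). Just outside lay those nearest to Vmn1r75 at 5098 bp, Vmn1r173 at 5119 bp, Vmn1r82 at 5570 bp, Vmn1r215 at 5656 bp and Vmn1r208 at 5775 bp. The peak near Vmn1r208 had 31 tags and a fold of 837.9, a higher fold than any peak inside 5 kb of a member. The other 4 just outside held 3 to 5 tags. Within 10 kb, 38 members had a summit, but the share of other genes with one at that width was not counted. The ratio of member windows to flanks was then 0.388 (0.281 to 0.523).

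No single member passed the test of its window against its flanks. For each protein-coding gene the summits in the window were compared with those in 500 kb on each side by a two-sided exact binomial test with Benjamini-Hochberg adjustment over all 21283 genes with any summit there. More summits than predicted were called at 0.0376% of these genes and fewer at 0.0141%, and at 0 of the 193 members tested. The lowest was Vmn1r194 (3 summits, 0.261 predicted, exact binomial p = 0.0030, adjusted p = 0.55). Vmn1r158 had 1 summit with none in its flanks (exact binomial p = 0.011, adjusted p = 0.75). With a single summit in all, that p is only the window's share of the length. Vmn1r220 had 2 with 0.163 predicted (exact binomial p = 0.014, adjusted p = 0.78). These were the 3 members with an unadjusted exact p under 0.05. The flanks predicted at most 1.12 summits for any member (median 0.201), so that a single gene of this size cannot be shown to have too few. For 36 further placed members no summit lay in window or flanks, and no test was possible.

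Older symbols in the RefSeq table place many of the members in families named V1ra to V1rk. Of the V1rh genes, all on chromosome 13, 7 of 21 had a summit, while none of the 9 V1ri genes of the same chromosome did. The V1re genes, on chromosomes 7 and 17, had one at 3 of 13. None was found at the 31 V1rc genes of chromosome 6, the 20 V1rd genes of chromosome 7, the 6 V1rb or the 5 V1rf genes. V1ra and V1rg genes had one at 1 of 9 and 1 of 11. The members without a family letter had one at 5. The V1rh and V1ri genes lie in the same cluster, and the difference between them was not tested. The 3 V1re genes with a summit all lie on chromosome 17.

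Genes of vomeronasal signalling and of its neurons were also counted. A summit was present at 14 of 20 genes of a list of signal transduction, receptor transport and neuronal identity genes (70.0%, median length 20.8 kb), where 60.8% of all protein-coding genes had one. They held 77 summits where their flanks predicted 65.4. The highest fold was at Gnao1, the G protein subunit of Vmn2r neurons (494.1, 23 tags), and Ano1, a calcium-activated chloride channel, had 345.0 (21 tags). Ano2, another such channel, had 286.1 (21 tags), and Bcl11b, a transcription factor of vomeronasal neurons, had 285.3 (15 tags). Gnai2, which couples to the receptors described here, had 3 summits where 2.56 were predicted. Unadjusted exact p-values under 0.05 were found at 3 of the 20. Adcy2, an adenylyl cyclase, had 14 against 4.67 predicted (exact binomial p = 0.0070, adjusted p = 0.68). Trpc2, the channel at the end of the pathway, had 4 where 0.855 were predicted (exact binomial p = 0.014, adjusted p = 0.78). Bcl11b had 16 where 8.61 were predicted (exact binomial p = 0.036, adjusted p = 0.99). None of the 20 passed the adjusted exact binomial test, and the genes without a summit included Gng8, Gng13, Rtp1, Emx2 and Lhx2.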

How the data were processed

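The labels give 4 libraries of 4T1-TGL cells with reads of 76 nt. Peaks were called by the authors with MACS 1.4.4 on 1 merged treatment against 1 input, per the file headers, with a p cutoff of 1e-05, a fragment length of 53 bp and at most 1 tag per position. The aligner, its handling of reads with several matches and the libraries merged are not given in the sources used here. The deposited tag counts are whole treatment tags per peak, per the file headers. The deposited fold is a ratio to the scaled input, the deposited score is the p on a negative log10 scale, the deposited false discovery rate in percent is 0 for every peak, and the deposited summit height is an unscaled signal (pileup). Position, score and summit were identical in the 3 deposited files for all 77823 peaks. The build is mm10 (GRCm38), per the submitters' processing notes.

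Implied input was height divided by fold, over a genome mean of 0.0167 tags per fragment length (851227 tags, 53 bp, 2.7 Gb). Genes came from the RefSeq table of GRCm38.p6, without strand or exons. A gene window was the body and 5 kb on both sides. Density ratios have exact conditional binomial 95% intervals. The test per gene was a two-sided exact binomial test with Benjamini-Hochberg adjustment over all protein-coding genes, called at 0.05. It was tried on simulated summits spread evenly, with raised density at long genes only. Its power at genes as short as most members was therefore not simulated. Python 3.11.15, scipy 1.17.1, pandas 2.3.3 and statsmodels 0.14.6 were used. Named in full are the 10 members with the best peak of highest fold, those nearest to the window edge, the ends of each cluster, and the 5 signalling genes of highest fold, except items that are not reported here. Other members were chosen for mention after their values were seen. Members and lists were chosen with earlier results of these data known. The planned protein identity was replaced by promoter words, since no protein table was used. Alternatives covered the window, flank, cluster gap, peak strength and peak overlap.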

Additional observations from a re-analysis of the deposited data

How the results depend on the processing

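With 1 library per group and 1 merged list there are no replicates to leave out. No paired analysis was possible because no value belongs to a single library. Of 83 values recomputed under another setting, 67 stayed within the interval of the reported value, or within 1.5 times a count or 1 SD of a median, and 16 did not. The count of 17 members with a summit became 1 with the gene body only, 4 with 1 kb, 38 with 10 kb, 10 with peaks at or above the median fold and 9 without chromosome 13. The 20 distinct summits became 1, 4, 47, 12 and 9 under the same settings. The share of other genes with a summit was not counted under them, so these shifts in count have no background beside them. The ratio of member windows to flanks, 0.308, was 0.122 with the gene body only (1 summit), 0.621 for peaks with implied input at the genome mean (5 summits, exact interval 0.195 to 1.52) and 0.161 without chromosome 13. Without chr7-C it was 0.431 (0.257 to 0.681). The ratio of chr7-B to its flanks, 1.57, was 0.961 with peaks at or above the median fold. Other cluster gaps changed the span itself. With breaks at gaps over 500 kb, the largest part of chr7-B had a ratio of 0.880 (13 summits). With breaks only at gaps over 2 Mb, chr7-B joined with Vmn1r90 and had 3.68 (1.96 to 7.64, 87 summits). The ratios of the other 7 clusters stayed within their intervals, and that of chr7-C ran from 0.0198 to 0.0395. The causes of these shifts were not tested. No member passed the test per gene under any setting. The number of all genes called was 11, and became 20 with 10 kb, 26 with a flank of 1 Mb and 0 with peaks at or above the median fold. Leaving out chromosome 13 and chr7-C was chosen after the data were seen, and the alternative of 1 member per group of near-identical proteins was not run. Counting 1 member per group of identical upstream bases instead left 17 with a summit among 196. At this depth, a missing summit does not show that a locus was not recovered.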

Other observations

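The longest summit-free stretches of the autosomes had a feature in common with chr7-C. Of the 10 longest, 9 held genes whose promoter windows had a median share of 25-base words with other promoters between 87.7% and 100%, where the median over protein-coding genes is 0%. After the stretch of Vmn1r genes came one of 2.71 Mb on chromosome 14 with 44 protein-coding genes (median share 90.9%) and one of 2.42 Mb on chromosome 7 with 17, of which 16 were Vmn2r genes (88.8%). The exception was a stretch of 1.53 Mb on chromosome 4 around Skint5, Skint6 and Skint11, genes of a family expressed in skin and thymus, with a share of 2.90%. These stretches were picked by length after the positions were seen, and the part of read matching in them was not tested.

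Vmn1r pseudogenes, which are no members, had a summit at most 5 kb away at 18 of 142 (12.7%), with a median length of 852 bp.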
